A study of Mus musculus with 6 samples.

Results

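The 10 genes below break down stored triglyceride or set how lipid droplets form and grow, and were followed in cultured muscle cells: Pnpla2, Lipe, Mgll, Abhd5, G0s2, Hilpda, Fitm1, Fitm2, Bscl2 and Cidec. They were listed by name from their known roles, though with earlier results of these data already known. Each was taken from the array probe set tied to that gene symbol alone. All 10 were measured, by 1 probe set each, among 19938 named genes on the array. The cells were C2C12, a mouse myoblast line that fuses into multinucleated myotubes when serum is lowered, here from 10% to 2%. Every culture was transfected with siRNA at 10 nM, either a scrambled control or one directed against Plin2, the gene of the droplet coat protein perilipin 2. Each siRNA was combined with 20 h of 200 µM oleate (monounsaturated) or palmitate (saturated), carried by bovine serum albumin (BSA) at a molar ratio of 2.5, or with the albumin alone. That gave 6 conditions with 1 Affymetrix array each, so every condition is a single array reading and untransfected cells were not analysed here.

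Triglyceride inside a droplet is cut stepwise. The triglyceride lipase ATGL, encoded by Pnpla2, releases a fatty acid and leaves diglyceride, hormone-sensitive lipase (Lipe) acts on the diglyceride, and monoglyceride lipase (Mgll) on what remains. ATGL is activated by the cofactor encoded by Abhd5 and held back by the small inhibitory proteins encoded by G0s2 and Hilpda. On the building side, the FIT proteins encoded by Fitm1 and Fitm2 sit in the endoplasmic reticulum, bind triglyceride and favour droplet formation, with Fitm1 found mainly in muscle and Fitm2 in most tissues. Seipin (Bscl2) works where a new droplet joins the endoplasmic reticulum, and Cidec moves lipid from small droplets into larger ones.

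The 2 members that passed the test were the paralogs Fitm1 and Fitm2, and they went in opposite directions with Plin2 siRNA, so the 250 bases before the start of each are shown. The sequences are from RefSeq on the GRCm38.p6 build, at chr14:55575424-55575673 on the + strand for Fitm1 and chr2:163472630-163472879 on the - strand for Fitm2. Capitals mark each CANNTG, the E-box core that MyoD-family muscle factors and other helix-loop-helix proteins recognise.
Fitm1: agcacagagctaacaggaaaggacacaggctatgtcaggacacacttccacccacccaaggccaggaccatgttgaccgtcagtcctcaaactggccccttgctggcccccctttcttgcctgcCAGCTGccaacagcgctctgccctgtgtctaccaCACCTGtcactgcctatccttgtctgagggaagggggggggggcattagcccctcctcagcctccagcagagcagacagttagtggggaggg
Fitm2: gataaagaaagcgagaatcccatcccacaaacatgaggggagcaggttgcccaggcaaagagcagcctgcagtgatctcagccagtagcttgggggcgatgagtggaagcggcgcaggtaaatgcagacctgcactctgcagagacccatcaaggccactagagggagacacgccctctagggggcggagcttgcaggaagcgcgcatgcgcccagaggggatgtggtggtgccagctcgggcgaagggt
The Fitm1 window held 2 such cores, CAGCTG starting 126 bases before the start and CACCTG starting 92 bases before it, and the Fitm2 window held 0. A CANNTG core is common, present in 66.2% of all 32851 RefSeq promoter windows of the same length, while CAGCTG was in 13% and CACCTG in 17.2%. CANNTG was also in a window of 7 of the 10 genes counting every listed start, CAGCTG in 3 of them (Fitm1, G0s2 and Cidec) and CACCTG in 4 (Fitm1, G0s2, Bscl2 and Pnpla2). ACGTG, the core of a hypoxia response element, was in 16.6% of windows and in those of Lipe, Mgll and Hilpda. AGGTCA, a nuclear receptor half-site, was in 14% and in those of Abhd5 and Bscl2. The MEF2 motif (2.92% of windows) and the DR1 motif of PPAR receptors (0.338%) were in 0 of the 10. DR1 was searched as a repeat of the nuclear receptor half-site with any base allowed in place of its T. The counts of members are per gene over all its listed starts, while the percentages are per window, so their units differ. Both strands were searched, CAGCTG and CACCTG are themselves forms of CANNTG, and a match is only a run of letters in this window.

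**Figure D1:**
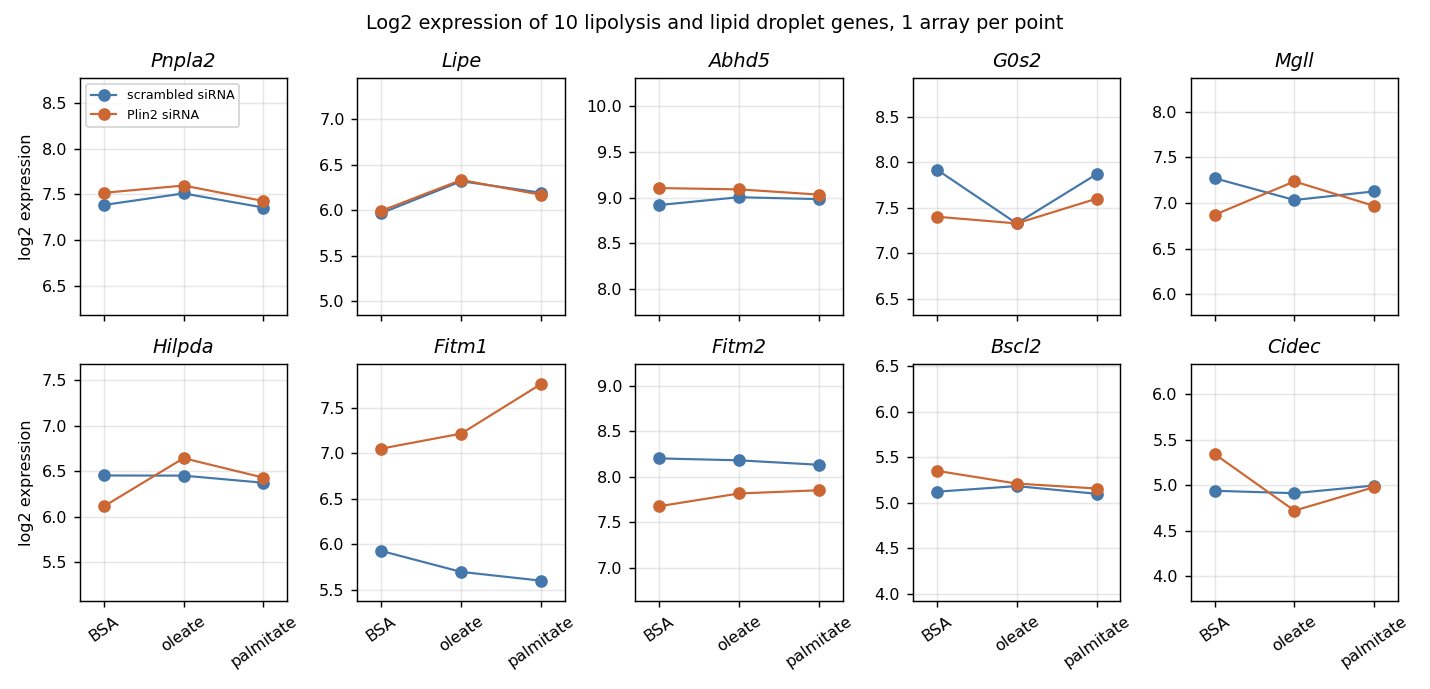
Log2 expression (y axis, each panel spanning the same height) of the 10 genes by treatment (x axis), 1 array per point, with lines joining the 3 arrays of an siRNA. Fitm1 lies above 7 in each Plin2 siRNA array and below 6 in each scrambled array, Fitm2 lies lower in each Plin2 siRNA array, and in the other panels the siRNAs lie close together or cross.

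The knockdown held in each treatment: Plin2 changed by -2.35 (BSA), -2.40 (oleate) and -2.65 (palmitate) on the log2 scale. The defining myotube markers of the label were not absent: all 12, among them Ckm, Acta1 and Myh3, read between 9.28 and 13.67, where the median of named probe sets was 5.78 to 5.83 per array. Of the 8 fibroblast markers some read as high, up to 12.08 for the matrix gene Postn, and the list mean was 8.27 to 8.46, so these levels do not by themselves tell the cell types apart. Of the adipocyte markers, 10 of 12 had a probe set. The fat-cell hormone Adipoq read 3.41 to 3.54, while Pparg read 6.87 to 7.35 and Cebpa 6.27 to 6.89, above the median in every array. The list mean spanned 4.50 to 4.72 with scrambled and 4.48 to 4.72 with Plin2 siRNA. Of those 10 adipocyte markers, 0 passed limma's test in the siRNA comparison.

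The siRNA comparison asks which of these genes differ between Plin2 siRNA and scrambled siRNA, with the 3 treatments serving as repeats. The data used here hold no measurement of perilipin 2 protein, and effects of the siRNA on other targets were not tested. Fitm1 rose, Fitm2 fell, and none of the lipases, the ATGL cofactor, the ATGL inhibitors, seipin or Cidec passed the threshold of an adjusted p of 0.05. That is 2 of 10 members, where 17.1% of all 21789 named probe sets passed, so the count is near the background. By direction it is 1 riser beside 8.5% of probe sets and 1 faller beside 8.58%. The median change of the members was 0.04 on the log2 scale and that of all named probe sets 0.0069. The members' changes ran from -0.39 to 1.60, with 6 above 0 and 4 below.

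Fitm1, the muscle FIT protein gene, read 5.93 in BSA, 5.70 in oleate and 5.60 in palmitate with scrambled siRNA. With Plin2 siRNA it read 7.05, 7.21 and 7.76. The groups did not overlap, and the gap between the lowest Plin2 siRNA array and the highest scrambled array, both from BSA, was 1.12. Fitm1 rose by 1.60 (SE 0.16, 95% interval 1.25 to 1.95, n = 3 pairs of arrays, limma adjusted p = 4.2e-05), a 3.03-fold change larger than that of 99.8% of named probe sets. Treatment by treatment the difference came to 1.12 with BSA, 1.52 with oleate and 2.16 with palmitate. The SE of 0.16 borrows spread across probe sets, and from these 3 differences alone it was 0.30. The scrambled levels lay close to the array median of named probe sets. Within the scrambled arrays the neighbouring levels were 0.23 and 0.10 apart, both under the fitted standard deviation of a difference of 2 arrays, which was 0.27. No condition has replicate arrays, so that deviation comes from the fit and is not a measured noise between arrays. Among the Plin2 siRNA arrays palmitate stood 0.54 above oleate, and oleate 0.16 above BSA.

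Fitm2, the widely expressed relative, read 8.20, 8.18 and 8.13 in BSA, oleate and palmitate with scrambled siRNA. With Plin2 siRNA it read 7.68, 7.82 and 7.85. Here too the groups did not overlap, with the Plin2 siRNA arrays the lower ones. Fitm2 fell by 0.39 (SE 0.08, 95% interval -0.57 to -0.21, n = 3 pairs, limma adjusted p = 0.0060), to 0.763 of its scrambled level. The treatment differences were -0.52 in BSA, -0.36 in oleate and -0.28 in palmitate. The Fitm2 call was lost without the scrambled BSA array (-0.32, adjusted p = 0.088) or the Plin2 siRNA BSA array (-0.32, adjusted p = 0.083), which drop the same pair, and narrowly with all probe sets in the fit (adjusted p = 0.053). Without moderation across genes, a paired test over the 3 treatments called 0 of 21789 probe sets, with an adjusted p of 0.25 for both Fitm1 and Fitm2.

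Muscle identity markers moved in the same arrays, in which 8.5% of all named probe sets rose and 8.58% fell with Plin2 siRNA. Of 12 myotube markers, 7 fell with Plin2 siRNA and 1 rose, with Myog, a differentiation factor, at -0.69, the oxygen-binding Mb at -0.70 and the Z-disc gene Actn2 at 0.81. The list mean was 11.31 to 11.59 in scrambled and 11.22 to 11.28 in Plin2 siRNA arrays. Of 8 markers of undifferentiated myoblasts, 4 rose and 0 fell, including Id3 (1.60), Myf5 (0.63) and Myod1 (0.46). The list was not uniform: 5 of the 8 changes were above 0. Top2a (-0.23), Mki67 (-0.19) and Ccnd1 (-0.07) lay below 0 without passing. The mean of the 8 was 7.74 to 7.89 in scrambled and 8.09 to 8.21 in Plin2 siRNA arrays. Of 8 fibroblast markers, 1 rose and 1 fell. In RNA from a whole culture, fewer cells of a type and less RNA per cell cannot be told apart, and the part of these markers in the Fitm1 and Fitm2 changes was not tested.

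**Figure D2:**
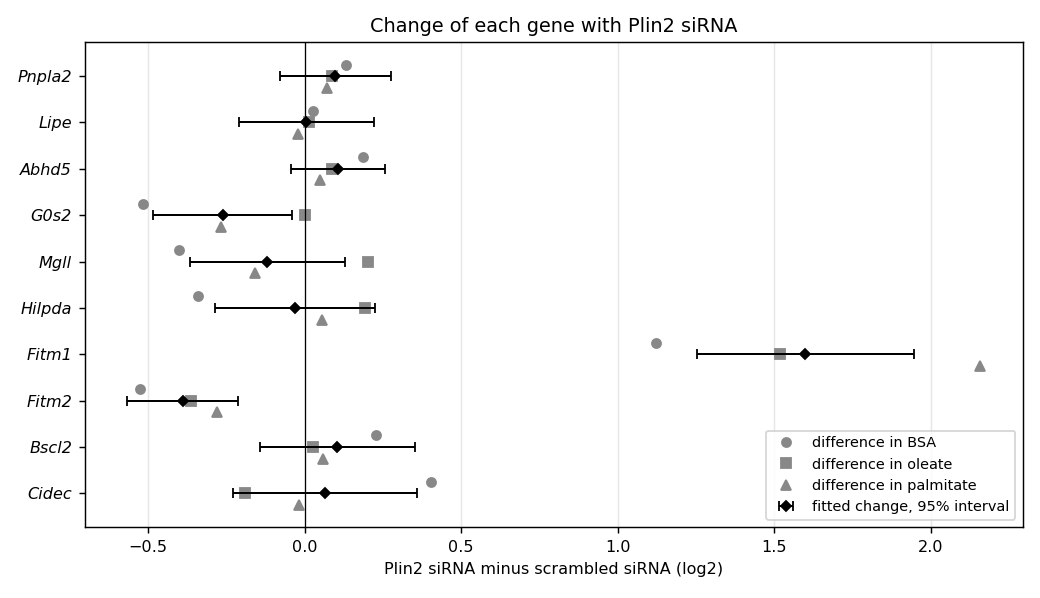
Log2 difference between Plin2 siRNA and scrambled siRNA (x axis) for each gene (y axis): grey symbols are the difference in each treatment, 1 array minus 1 array, and black diamonds the fitted change with its 95% interval. Fitm1 lies at 1.60 and Fitm2 at -0.39 with intervals clear of 0, G0s2 at -0.26 has grey symbols between -0.52 and 0.00074, and the other 7 intervals span 0.

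Among the lipases, Pnpla2 read 7.38, 7.51 and 7.36 in BSA, oleate and palmitate with scrambled siRNA and 7.52, 7.60 and 7.43 with Plin2 siRNA. Plin2 siRNA was slightly higher in each treatment, but the groups overlapped, and the change of 0.10 had an interval of -0.08 to 0.27 (limma adjusted p = 0.52). Lipe read 5.97, 6.32 and 6.19 with scrambled siRNA and 5.99, 6.33 and 6.17 with Plin2 siRNA. The lines of both siRNAs lay nearly on top of each other: its siRNA change was 0.0055, with an interval of -0.21 to 0.22 (limma adjusted p = 0.99). Mgll read 7.27, 7.03 and 7.13 with scrambled and 6.87, 7.24 and 6.97 with Plin2 siRNA. Its siRNA difference was below 0 in BSA and palmitate and above 0 in oleate, and averaged -0.12 (interval -0.37 to 0.13).

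The ATGL cofactor gene Abhd5 read 8.92, 9.00 and 8.98 with scrambled siRNA and 9.10, 9.09 and 9.03 with Plin2 siRNA. The groups did not overlap, but they were 0.11 apart (interval -0.04 to 0.26, limma adjusted p = 0.37). Arrays of the siRNAs did not overlap for 3 of the 10 members (Fitm1, Fitm2 and Abhd5), against 30.3% of all named probe sets (15.6% with Plin2 siRNA higher, 14.7% lower). Abhd5 varied least of the members, with 0.19 between its highest and lowest array.

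The ATGL inhibitor gene G0s2 read 7.92, 7.33 and 7.87 in BSA, oleate and palmitate with scrambled siRNA and 7.40, 7.33 and 7.60 with Plin2 siRNA. It was lower with Plin2 siRNA in BSA and palmitate and level with scrambled in oleate. The change of -0.26 (SE 0.10, interval -0.48 to -0.04) did not pass over all genes (limma adjusted p = 0.11). Leaving out the scrambled oleate array or the Plin2 siRNA oleate array, which drops the treatment without a difference, gave -0.39. Without either BSA array the value was -0.13. The other inhibitor gene, Hilpda, read 6.45, 6.45 and 6.37 with scrambled and 6.11, 6.64 and 6.43 with Plin2 siRNA. Its Plin2 siRNA BSA array was the lowest and its Plin2 siRNA oleate array the highest of the 6, and the siRNA change averaged -0.03 (interval -0.29 to 0.22).

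Bscl2 (seipin) read 5.12, 5.18 and 5.10 with scrambled siRNA and 5.35, 5.21 and 5.16 with Plin2 siRNA. Cidec read 4.94, 4.91 and 5.00 with scrambled and 5.34, 4.72 and 4.98 with Plin2 siRNA. Both lay below the array median of named probe sets in each array, and for Cidec the Plin2 siRNA arrays held both the highest and the lowest value. Their siRNA changes were 0.10 (interval -0.14 to 0.35) and 0.06 (interval -0.23 to 0.36).

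Other genes of droplets and lipid storage also changed with Plin2 siRNA. Their lists were not tested against the members or against all named probe sets, of which 17.1% passed (8.5% up and 8.58% down). Of 20 measured droplet coat and surface genes, 2 rose and 6 fell, including Plin2 itself; besides it the largest falls were those of the caveolae genes Cav2 (-0.55) and Cav1 (-0.54). Of 30 other lipases and genes of lipolytic control, 4 rose and 8 fell: the cholesterol ester hydrolase Nceh1 fell by 1.94 (SE 0.12, adjusted p = 1.3e-06), lipoprotein lipase Lpl rose by 0.86 and the monoglyceride hydrolase Abhd6 fell by 0.70. Of 17 triglyceride synthesis enzymes, 4 fell and 0 rose, led by Gpat3 (-1.12), Agpat4 (-0.82) and the diglyceride acyltransferase Dgat2 (-0.60). Of 26 PPAR-responsive genes, 7 rose and 4 fell; after Plin2 the largest changes were those of the fatty acid transporter Cd36 (2.21) and the hormone Fgf21 (-2.05). Of 19 hypoxia-inducible genes, a class to which Hilpda also belongs, 8 fell and 0 rose, led by the glucose transporter Slc2a1 (-1.35), the oxygen-sensing hydroxylase Egln3 (-1.20) and hexokinase Hk2 (-1.19). Lpl, Plin2 and Plin5 are on 2 of these lists each. List medians were -0.00072 for coat genes, -0.00098 for the other lipases, -0.15 for synthesis enzymes, 0.12 for PPAR-responsive and -0.20 for hypoxia-inducible genes.

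The genes whose 6 values lay closest to Fitm1, after each gene was centred on its own mean, were the gap junction gene Gjd4 (root mean square difference 0.08), the arrestin-domain gene Arrdc3 (0.19) and the calpain relative Capn6 (0.22). Their siRNA changes were 1.62, 1.45 and 1.47. All 3, like Fitm1, had their highest value in the Plin2 siRNA palmitate array. Closest to Fitm2 were the chromosome maintenance gene Smc5 (0.018), Alpi (0.026) and the DNA-binding protein gene Fubp1 (0.027), with siRNA changes of -0.38, -0.36 and -0.38. These are likenesses over 6 arrays, chosen among 19938 genes.

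**Figure D3:**
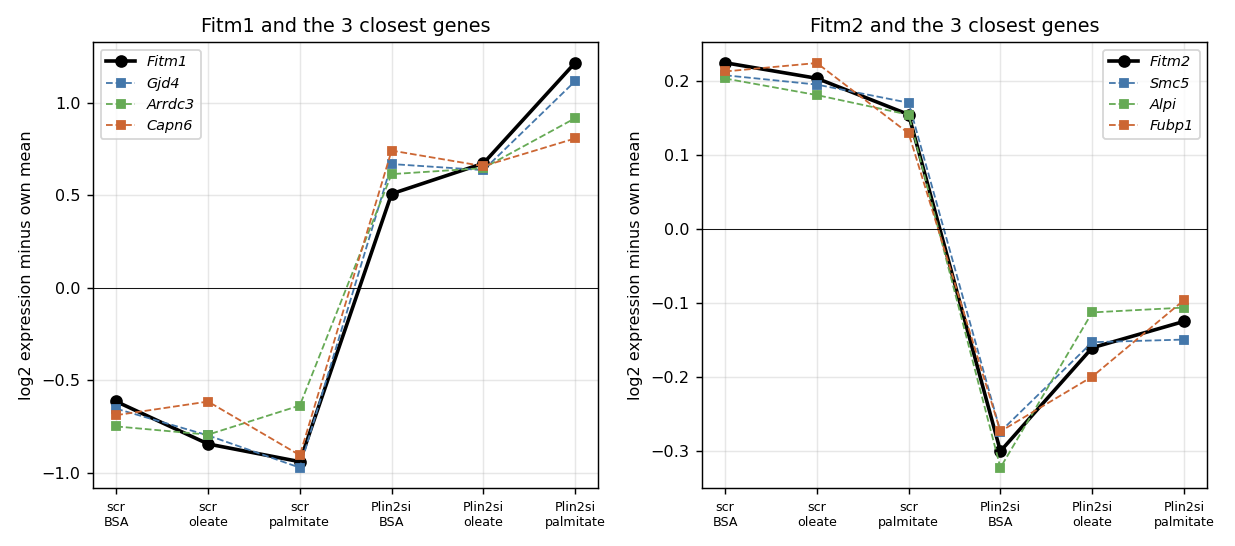
Log2 expression minus each gene's own mean (y axis) in the 6 arrays (x axis; scr is scrambled siRNA, Plin2si is Plin2 siRNA) for Fitm1 (left) and Fitm2 (right), in black, with the 3 genes closest to each. Fitm1 and Gjd4 both reach their highest value in Plin2 siRNA palmitate, and the Fitm2 panel spans a much narrower range than the Fitm1 panel.

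The fatty acid comparisons ask whether a 20 h lipid load alters these genes, and each has the 2 siRNAs as its repeats. None of the 10 members passed with oleate, palmitate or the mean of both against BSA. The same comparisons called 0.0734% of named probe sets with oleate (16; 0.0321% upward and 0.0413% downward), 0.00918% with palmitate (2) and 0.0229% with the mean of both (5), so few genes of any kind passed. At an unadjusted limma p under 0.05 there were 2 members with oleate (Lipe and G0s2), 0 with palmitate and 1 with the mean (Lipe), beside 6.26%, 5.20% and 4.62% of named probe sets. Established fatty acid targets did respond: Angptl4, a secreted lipase inhibitor, rose by 2.57 with oleate and 2.19 with palmitate, and the carnitine transferase gene Cpt1a by 1.40 and 1.18 (SE 0.11 for Angptl4 and 0.08 for Cpt1a; limma adjusted p at most 0.00018). Among the 26 PPAR-responsive genes 4 rose with oleate (Angptl4, Cpt1a, Pdk4 at 1.43 and Plin2 at 0.71) and 2 with palmitate. Of the coat genes only Plin2 passed with oleate, and 0 of the 30 lipase and control genes, 17 synthesis enzymes and 19 hypoxia-inducible genes passed with either fatty acid. All 10 members' intervals stayed below the size of the Angptl4 and Cpt1a rises, the highest upper bound being 0.61 with oleate (Lipe) and 0.62 with palmitate (Fitm1).

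Lipe, for hormone-sensitive lipase, stood higher with both fatty acids and both siRNAs, though below the threshold. It was above BSA by 0.35 with scrambled and 0.34 with Plin2 siRNA in oleate, and by 0.22 and 0.18 in palmitate. All 4 fatty acid arrays lay above both BSA arrays, an order whose share among all named probe sets was not counted. Within a siRNA both responses are taken from the same BSA array, so they are not independent. The fitted oleate change was 0.34 (SE 0.12, interval 0.08 to 0.61, n = 2 pairs), which did not pass over all genes (limma adjusted p = 0.62), and for the mean of both fatty acids it was 0.27 (SE 0.10, adjusted p = 0.99). Pnpla2, which encodes the lipase acting before it, stood at 0.13 and 0.08 with oleate and at -0.03 and -0.09 with palmitate. The third lipase gene, Mgll, stood at -0.24 with oleate under scrambled and 0.37 under Plin2 siRNA, so its mean of 0.06 describes neither.

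G0s2 had the largest fitted difference between the fatty acids among the members, although with Plin2 siRNA alone Fitm1 had a larger one (0.54). Oleate lay 0.59 below BSA with scrambled siRNA and 0.07 below with Plin2 siRNA, while palmitate lay 0.05 below and 0.20 above BSA. Palmitate exceeded oleate by 0.54 with scrambled and 0.27 with Plin2 siRNA. The fitted palmitate minus oleate difference was 0.41 (SE 0.12, interval 0.13 to 0.68, limma adjusted p = 0.35). Without the Plin2 siRNA oleate array it was 0.60, and the oleate change, -0.33 on all arrays (limma adjusted p = 0.69), was then -0.53. Without the scrambled oleate array the palmitate minus oleate difference was 0.21. Oleate has a longer chain than palmitate and is unsaturated, and at the same dose and time 0.262% of named probe sets (57) differed between them, 0.142% higher and 0.119% lower with palmitate. For the other 9 members the palmitate minus oleate change lay between -0.16 (Pnpla2) and 0.22 (Fitm1), 0 passed, and the intervals reached from -0.46 (Hilpda) to 0.65 (Fitm1). Among the listed genes the phosphatidate phosphatase Lpin3 was higher with palmitate (0.57, adjusted p = 0.035) and the pyruvate dehydrogenase kinase Pdk4 was lower (-0.89, adjusted p = 0.011).

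**Figure D4:**
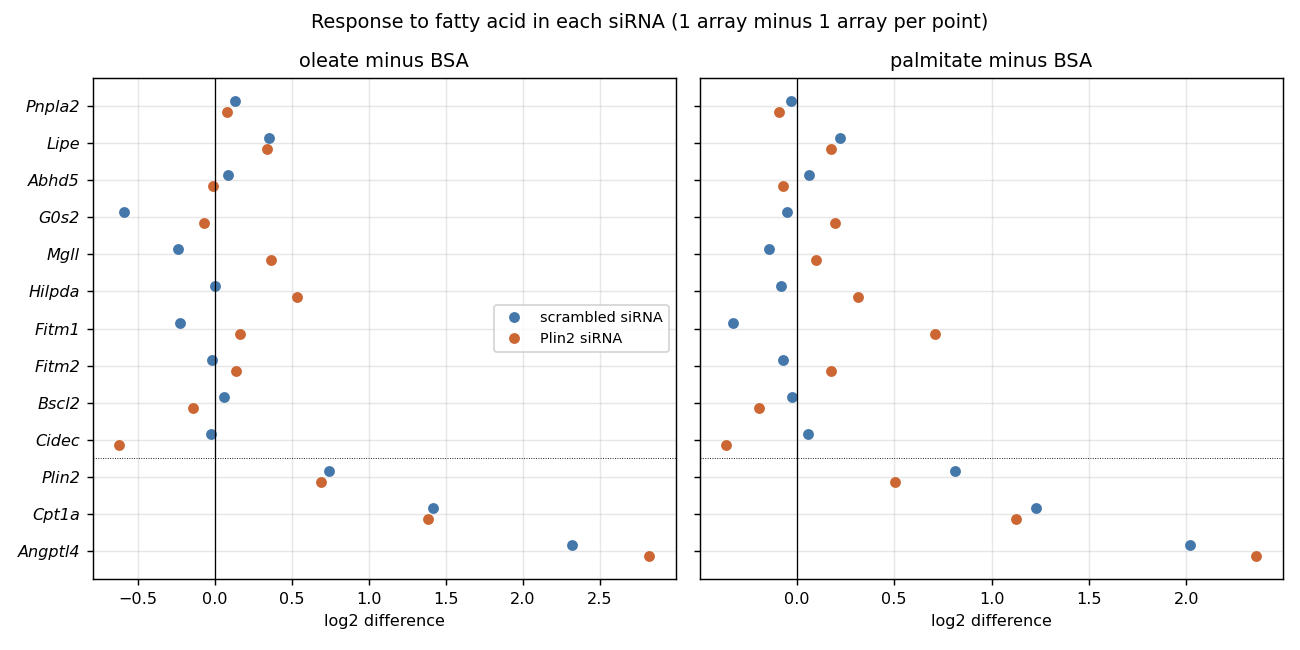
Log2 difference from BSA (x axis) with oleate (left) and palmitate (right) for the 10 genes and, below the dotted line, Plin2, Cpt1a and Angptl4 (y axis); each point is 1 array minus the BSA array of the same siRNA. The members lie between -0.62 and 0.71, Cpt1a lies above 1 and Angptl4 above 2 in both panels, and the siRNAs lie on opposite sides of 0 for Mgll, Hilpda, Fitm1, Fitm2 and Abhd5 in both panels.

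Whether the fatty acid response differed between the siRNAs was tested with an interaction term, which had 1 residual degree of freedom. It called 0% of named probe sets; 551 of 21789 (2.53%) had an unadjusted limma p under 0.05, among them 1 member, Fitm1. With Plin2 siRNA, Fitm1 lay above BSA by 0.16 in oleate and 0.71 in palmitate, and with scrambled siRNA below it by 0.23 and 0.33. The interaction was 0.71 for Fitm1 (SE 0.27, interval 0.15 to 1.28, adjusted p = 1.00). Hilpda was at -0.0017 and -0.08 with scrambled siRNA and at 0.53 and 0.32 with Plin2 siRNA, an interaction of 0.46 (interval -0.05 to 0.98). Cidec went the other way, at -0.03 and 0.06 with scrambled and -0.62 and -0.36 with Plin2 siRNA (interaction -0.51, interval -1.10 to 0.09). In Hilpda and Cidec the Plin2 siRNA BSA array, which both of these responses share, was the lowest and the highest of the 6 arrays.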

How the data were processed

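The authors deposited log2 expression values, 1 per probe set and array, made with RMA per the submitters' processing notes. No source used here names a version of it or a build. RMA normalizes between arrays, and the values carry no detection call, so a low signal such as that of Cidec or Bscl2 cannot be called present or absent. The values were used as deposited. Of 35556 probe sets, GEO's platform annotation tied 21789 to 1 gene symbol and 1621 to several; 12146 are unnamed here. A gene is given by its highest-mean probe set.

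Changes are log2 differences from limma 3.58.1 in R 4.3.3, fitted on all 21789 named probe sets with treatment and siRNA as terms and eBayes with an intensity trend (2 residual degrees of freedom plus 9.21 borrowed across probe sets). P-values were adjusted by Benjamini-Hochberg over all of them. Without replicates of a condition, the error of an siRNA change is its variation over 3 treatments and that of a fatty acid change its variation over 2 siRNAs. Nothing in the labels says the cultures were separate, so p-values measure the spread between these arrays, whose number limits the precision. The script was tested on simulated data.

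The members, gene lists, marker lists and alternatives were chosen with earlier results of these data known. Named genes are the members, Plin2, Angptl4, Cpt1a, up to 3 genes per list and comparison with the largest change past the threshold, and the 3 genes closest to each member that passed; markers named from the identity lists were picked after their values were seen. The alternatives were other spread models, all probe sets, a filter on low signal, quantile normalization, centring, models with other terms or arrays, and leaving out each array. Averaging a gene's probe sets changes nothing here, since each member has 1.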

Additional observations from a re-analysis of the deposited data

Results flagged for a closer look

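For 5 of the 10 genes both fatty acids lay on one side of BSA with scrambled siRNA and on the other side with Plin2 siRNA, a pattern also met by 17.4% of all named probe sets. The difference between the siRNAs in the mean fatty acid response was 0.71 for Fitm1, 0.46 for Hilpda, 0.42 for Mgll, 0.20 for Fitm2 and -0.12 for Abhd5 on the log2 scale. The interaction test passed none of them (limma adjusted p = 1.00 for each, 1 residual degree of freedom). Within a siRNA both responses are taken from the same BSA array, so their shared sign is not 2 independent readings. For Abhd5 the responses were 0.09 and 0.06 with scrambled and -0.01 and -0.07 with Plin2 siRNA. No condition has more than 1 array, so single arrays could not be tested as outliers.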

How the results depend on the processing

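With Plin2 siRNA 2 members passed; 2 also passed without the intensity trend, with robust eBayes, without the lowest 33.3% of probe sets, after quantile normalization, after centring and with no treatment term. It was 1 (Fitm1) when the fit held every probe set and 0 by the paired test without moderation. Fits with 1 array left out have fewer residual degrees of freedom than the main fit and lean more on the spread borrowed across probe sets. Their p-values and calls are therefore not on the same footing as those of the main fit. Leaving out 1 array gave 1 to 3 members, with Fitm1 between 1.32 and 1.84 and Fitm2 between -0.44 and -0.32; G0s2 was the addition without either oleate array. Leaving out 1 array gave 0 to 1 members for oleate and 0 to 1 for palmitate minus oleate (G0s2 without the Plin2 siRNA oleate array in both), and 0 members passed with palmitate, the mean of both fatty acids or the interaction in every alternative run. Over all named probe sets, the siRNA count of 3721 was 2403 without the trend, 2159 with all probe sets, 2215 and 2213 without a BSA array, and 0 by the paired test. The oleate count of 16 lay between 0 and 262, the palmitate count of 2 between 0 and 119, the count of 5 for the mean between 2 and 93, and that of 57 for palmitate minus oleate between 0 and 538; the interaction count was 0 in each alternative.

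The following signs changed, all of values that did not pass. The siRNA change of Lipe was -0.0076 after quantile normalization and -0.014 after centring, and its interaction 0.0049 and 0.018. After quantile normalization the palmitate change of Abhd5 was 0.013 and the palmitate minus oleate difference of Fitm2 was 0.012. Leaving out 1 array, the range with Plin2 siRNA was -0.10 to 0.19 for Cidec, -0.14 to 0.12 for Hilpda, -0.0044 to 0.020 for Lipe and -0.28 to 0.022 for Mgll. The range with oleate was -0.023 to 0.095 for Abhd5, -0.13 to 0.054 for Bscl2, -0.39 to 0.32 for Fitm1, -0.042 to 0.16 for Fitm2 and -0.18 to 0.31 for Mgll. The range with palmitate was -0.062 to 0.056 for Abhd5, -0.41 to 0.10 for Cidec, -0.23 to 0.61 for Fitm1, -0.049 to 0.15 for Fitm2, -0.12 to 0.26 for G0s2, -0.11 to 0.35 for Hilpda and -0.24 to 0.19 for Mgll. The range with the mean of both fatty acids was -0.043 to 0.075 for Abhd5, -0.17 to 0.019 for Bscl2, -0.49 to 0.015 for Cidec, -0.28 to 0.44 for Fitm1, -0.045 to 0.16 for Fitm2, -0.32 to 0.062 for G0s2, -0.041 to 0.42 for Hilpda, -0.19 to 0.23 for Mgll and -0.0045 to 0.050 for Pnpla2. The range of palmitate minus oleate was -0.082 to 0.0041 for Abhd5, -0.021 to 0.36 for Cidec, -0.19 to 0.64 for Fitm1, -0.089 to 0.076 for Fitm2, -0.31 to 0.021 for Hilpda and -0.33 to 0.15 for Mgll. The cause of these changes was not tested beyond the smaller number of arrays. The interaction could not be fitted with 1 array left out, since no residual degree of freedom remains. The labels give no replicate numbers, so arrays were matched by treatment alone, through the treatment term and in the paired test.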

Other observations

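The Plin2 siRNA BSA array was the highest or lowest of the 6 arrays for 6 of the 10 genes, against 30.0% of all named probe sets. It was the highest for Abhd5, Bscl2 and Cidec and the lowest for Mgll, Hilpda and Fitm2. The scrambled BSA array was an extreme for 5 members (31.0% of all named probe sets) and the scrambled oleate array for 1 (32.5%). Fitm1 had a range of 2.16 over the 6 arrays, wider than 99.8% of named probe sets, while Abhd5 had one of 0.19, wider than 9.12%.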
